A study of Mus musculus with 8 samples.

Results

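Genes of Toll-like receptor signalling were examined in spinal cord RNA of mice with experimental autoimmune encephalomyelitis (EAE), an inflammatory demyelinating disease used as a model of multiple sclerosis. The members were Tlr2, Tlr4, Cd14, Myd88 and Irak1, chosen by gene symbol from the annotation of the Affymetrix MG U74Av2 array. Of these 5 genes, 3 had a probe set (a group of short probes for 1 transcript), namely Cd14, Myd88 and Irak1 with 1 probe set each. They made up 3 of 12422 probe sets and 3 of 8251 genes. No probe set carried the symbol Tlr2 or Tlr4 in the annotation used here, and both receptors were not analysed here.

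The EAE group held 5 arrays from 10 female SJL/J mice that were injected with a PLP peptide, a fragment of the myelin protein PLP, and killed at an average grade of 2.5 between day 12 and day 17. The control group held 3 arrays from 6 female SJL/J mice of the same age range that received vehicle. Each array held pooled RNA of 2 animals aged 8 to 12 weeks. The methods instead give an age of 8 weeks and grades from 2.5 upward, and call the controls healthy without naming a vehicle. According to the methods the peptide was given with complete Freund's adjuvant, which contains mycobacteria, and with pertussis toxin, and the sources used here do not state whether the vehicle contained either. The labels add an intravenous injection of murine serum albumin for EAE mice and name none for controls. Effects of the adjuvant, the toxin and the albumin on these genes therefore cannot be told apart from those of EAE.

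Toll-like receptors recognise microbial products and some molecules released by damaged tissue. Most of them recruit the adaptor MyD88, which assembles IRAK kinases and TRAF6 and leads to the activation of NF-kappaB, MAP kinases and interferon regulatory factors. CD14 is a coreceptor that hands lipopolysaccharide to TLR4 and also assists TLR2. In the spinal cord these proteins are best known from microglia and from macrophages that enter during inflammation. MyD88 and IRAK1 also serve the receptors of interleukin-1, so that their transcripts are not particular to Toll-like receptors.

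All values are log2 signals as deposited, with array medians of 6.08 to 6.12. The markers of spinal cord were present in the control arrays, where the 7 neuronal markers measured had means of 7.88 to 11.76 and the 4 oligodendrocyte markers means of 9.42 to 11.98. On EAE arrays both groups of markers were lower without overlap. The mean over the neuronal markers was 8.50 to 9.01 on EAE arrays and 9.60 to 9.76 on control arrays, with 4 of 7 called lower, and that over the oligodendrocyte markers was 9.87 to 10.50 on EAE arrays and 10.61 to 10.92 on control arrays, where Mog alone passed the test. Markers of macrophages and microglia were higher. Their mean over 10 genes was 7.85 to 8.53 on EAE arrays and 6.05 to 6.14 on control arrays, and 9 of the 10 rose, while Cx3cr1, a chemokine receptor of resting microglia, had a log2 fold change of 0.00. The 8 neutrophil markers had means of 7.19 to 7.58 on EAE arrays and 5.58 to 5.66 on control arrays, and 6 of them rose. The receptors Csf3r (0.03) and Cxcr2 (0.19) did not pass the test. Among other markers, 1 of 5 for T cells, 1 of 3 for astrocytes, 1 of 5 for endothelium and 0 of 4 for B cells rose. The RNA came from whole tissue, so that more cells of a type and more RNA per cell cannot be told apart for any gene described here. The part of these cells in the changes of the pathway was not tested.

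Sequence upstream of 2 of the measured members is shown because Myd88 and Irak1 act next to each other in the pathway but differed in their change. No such sequence for Cd14 was available in the sources used here. The windows come from RefSeq on the build GRCm38.p6 and hold the 250 bases before the annotated start of the transcript, written 5′ to 3′ on the strand of the gene. Myd88 had 1 entry, at chr9:119340019-119340268 on the minus strand. Irak1 had 2 entries that start 3 bases apart, and the first, at chrX:74023922-74024171 on the minus strand, is given. Capitals mark matches to the motifs searched on both strands, which were an interferon regulatory factor pair (GAAANNGAA), a STAT element (TTCNNNGAA), an AP-1 element (TGANTCA) and the NF-kappaB consensus.
Myd88: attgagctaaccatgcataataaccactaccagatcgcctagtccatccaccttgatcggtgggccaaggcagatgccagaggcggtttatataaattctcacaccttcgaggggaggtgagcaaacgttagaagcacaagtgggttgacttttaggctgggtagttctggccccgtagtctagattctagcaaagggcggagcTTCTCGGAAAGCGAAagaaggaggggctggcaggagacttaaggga
Irak1: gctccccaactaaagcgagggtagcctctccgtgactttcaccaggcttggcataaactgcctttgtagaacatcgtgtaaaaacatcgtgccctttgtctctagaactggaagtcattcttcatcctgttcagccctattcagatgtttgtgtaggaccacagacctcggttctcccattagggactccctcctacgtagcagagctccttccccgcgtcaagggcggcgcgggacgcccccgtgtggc

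The Myd88 window held 1 interferon regulatory factor pair starting at position -40 from the start site and 1 STAT element starting at -46. The matches overlap and share 3 bases. Among all 32851 windows of this length, 7.13% held the interferon regulatory factor pair and 7.02% the STAT element. The NF-kappaB consensus, found in 3.90% of all windows, and the AP-1 element, found in 6.75%, were not matched in the Myd88 window. Neither Irak1 window matched any of the 4 motifs. Each motif is missing from most windows, so that a window without any match is common. A match describes these letters and is not evidence of binding.

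Cd14 and Myd88 were higher in EAE spinal cord, whereas a change of Irak1 was not detected. Cd14 was 5.06-fold and Myd88 2.25-fold higher in the fit with the batch term. Only batches 1 to 3 held an array of each group. EAE arrays 4 and 5 have no control in their batches and carry no weight in this fit, here and for all other genes. The plain differences of the group means, over all arrays, were 2.49 for Cd14 and 1.31 for Myd88 on the log2 scale.

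The coreceptor Cd14 had log2 signals of 10.15, 10.48, 9.93, 10.39 and 10.71 on EAE arrays 1 to 5, against 7.84, 7.84 and 7.86 on control arrays 1 to 3. Every EAE array was above every control array, with EAE array 5 the highest and EAE array 3 the lowest of the EAE group. The mean was 10.33 ± 0.30 in EAE (SD, n = 5) and 7.85 ± 0.01 in control (SD, n = 3). In limma with treatment and batch the log2 fold change was 2.34 with a standard error of 0.122 and a 95% confidence interval of 2.03 to 2.65, and the adjusted p was 0.000683. Within batches 1, 2 and 3, each of which held an EAE and a control array, the differences were 2.31, 2.64 and 2.06. The exact two-sided permutation test gave p = 0.0179, the smallest value that the 56 regroupings of these arrays can give. Here and for the other members this test regrouped the arrays without regard to batch. A log2 fold change above that of Cd14 was found for 0.958% of all probe sets.

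The adaptor Myd88 had log2 signals of 6.79, 6.98, 6.50, 7.10 and 7.13 on EAE arrays 1 to 5, against 5.36, 5.64 and 5.76 on control arrays 1 to 3. The groups again did not overlap, and EAE array 3 was again the lowest of its group, followed by EAE array 1. The mean was 6.90 ± 0.26 in EAE (SD, n = 5) and 5.59 ± 0.21 in control (SD, n = 3). The log2 fold change was 1.17 with a standard error of 0.15 and a 95% confidence interval of 0.79 to 1.55, and the adjusted p in limma was 0.00874. The differences within batches were 1.43, 1.34 and 0.74, so that batch 3 showed the smallest. The exact two-sided permutation test gave p = 0.0179. Of all probe sets, 2.79% had a larger log2 fold change.

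The kinase Irak1, which is recruited to MyD88 after receptor binding, had log2 signals of 8.46, 8.01, 8.14, 8.50 and 8.13 on EAE arrays 1 to 5, against 8.05, 8.20 and 8.27 on control arrays 1 to 3. The groups overlapped, with EAE arrays 1 and 4 above all controls and EAE array 2 below all controls. The mean was 8.25 ± 0.22 in EAE (SD, n = 5) and 8.17 ± 0.12 in control (SD, n = 3). The log2 fold change was 0.03 with a standard error of 0.137, and its 95% confidence interval of -0.32 to 0.38 corresponds to a fold of 0.801 to 1.30. The adjusted p in limma was 0.913 and the exact two-sided permutation test gave p = 0.607. The batches differed in direction, with 0.42 in batch 1, -0.20 in batch 2 and -0.13 in batch 3. For Gapdh, a control transcript probed at both ends, the signal of the 3' end exceeded that of the 5' end most on EAE arrays 1 and 4, by 1.46 and 2.07, against 0.46 to 0.78 on the other EAE arrays and 0.53 to 0.97 on control arrays. For beta-actin this difference was 2.35 and 2.79 on EAE arrays 1 and 4, against 1.11 to 1.83 on the other EAE arrays and 1.62 to 2.29 on control arrays. Without both arrays the log2 fold change of Irak1 was -0.08 in the fit without the batch term (adjusted p = 0.591 in limma). With the batch term it was -0.16 (adjusted p = 0.310), the value also obtained without EAE array 1 or control array 1 alone, because EAE array 4 has no control in its batch and carries no weight there. The part of RNA quality in the Irak1 values was not tested.

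Over all 12422 probe sets, 1026 (8.26%) rose and 1412 (11.4%) fell at an adjusted p under 0.05, and 10.9% had every EAE array above every control array. These counts fell to 521 higher and 225 lower without EAE array 3 or control array 3, so that the balance of directions turned, and 571 were lower without an array of batch 2. Fits without an array of batch 1, 2 or 3 have 1 residual degree of freedom, against 2 in the reported fit. A call lost in such a fit need not mean a changed value. Of the 3 member probe sets 2 rose, and both had groups that did not overlap. The calls for Cd14 and Myd88 rest on the moderation of the variances in limma, since the same linear model without moderation gave an adjusted p of 0.133 for Cd14 and 0.201 for Myd88, with 1 probe set called higher in the whole table.

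**Figure D1:**
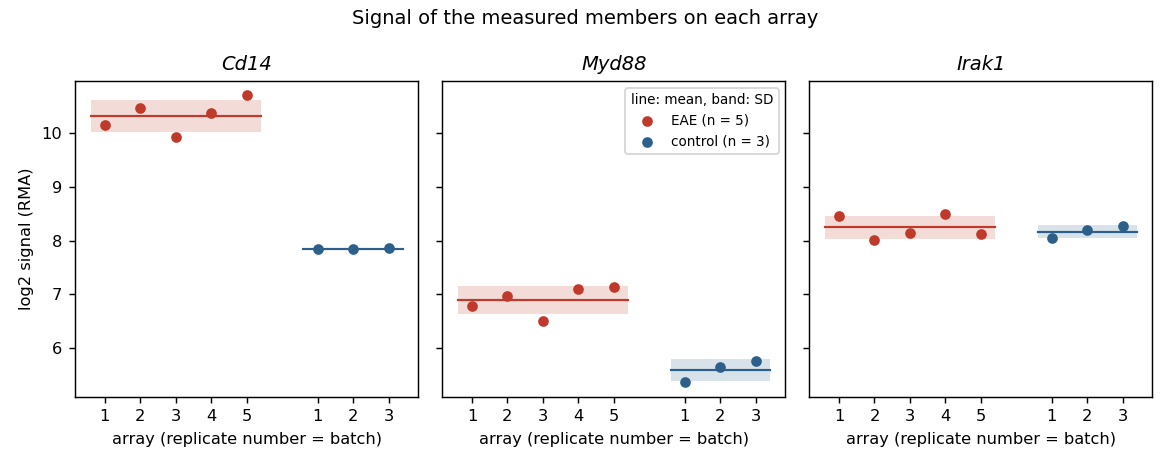
Log2 signal of Cd14, Myd88 and Irak1 on each array, with 5 EAE arrays and 3 control arrays in each panel, lines at the group means and bands of 1 SD. All EAE arrays lie above all control arrays for Cd14 (9.93 to 10.71 against 7.84 to 7.86) and Myd88 (6.50 to 7.13 against 5.36 to 5.76), while the Irak1 groups overlap (8.01 to 8.50 against 8.05 to 8.27).

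The wider pathway was described with 10 lists ordered by role, which together name 128 genes. Of these, 95 had a probe set, and the brightest stood for each gene. In EAE 45 of the 95 rose and 4 fell, and 46 did not pass the test. Over all probe sets 8.26% rose and 11.4% fell. With the brightest probe set for each of all 8251 genes, 758 rose and 1116 fell. Every EAE array was above every control array for 48 of the 95 (50.5%), against 10.9% of all probe sets. The median log2 fold change was 0.33 over the 95 genes and -0.05 over all probe sets. The lists were assembled from genes known for this pathway with earlier results of these arrays in view, and many of their genes are also expressed by macrophages or induced by interferons and cytokines.

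Among the receptors 1 of 3 measured genes rose. Tlr6, which pairs with TLR2 to recognise lipopeptides, had log2 signals of 6.24, 6.16, 6.23, 6.34 and 6.36 on EAE arrays 1 to 5, against 5.17, 5.19 and 5.39 on control arrays. The groups were separated by more than their spread, and the EAE arrays lay close together. Its log2 fold change was 0.96 ± 0.0753 (SE), a 1.95-fold rise with an adjusted p of 0.00218 in limma. Tlr7, a receptor of single-stranded RNA in endosomes, had a log2 fold change of 0.13 (adjusted p = 0.296), and Cd180, a relative of TLR4, one of 0.09 (adjusted p = 0.441). Log2 signals of Cd180 were low, 4.82 to 5.22 on EAE arrays and 4.86 to 5.08 on control arrays.

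Of the 6 measured coreceptors and chaperones 4 rose, with a median log2 fold change of 0.76 over the list. Ly86, also called MD-1, is the partner protein of CD180. It had log2 signals of 7.73, 7.63, 7.27, 7.88 and 7.74 on EAE arrays 1 to 5, against 5.88, 5.80 and 5.93 on control arrays, with EAE array 3 the lowest of its group as for Cd14 and Myd88. The log2 fold change of Ly86 was 1.67 ± 0.121 (SE, adjusted p = 0.00169), whereas that of Cd180 did not pass the test. Lbp, the serum protein that binds lipopolysaccharide and delivers it to CD14, rose by 0.64 on the log2 scale (adjusted p = 0.0051). Unc93b1 carries Toll-like receptors to endosomes and rose by 0.88 ± 0.178 (SE, adjusted p = 0.0296), but its adjusted p was 0.0534 without an array of batch 2 and 0.0501 without an array of batch 3. Its log2 signals were low, 4.44 to 5.24 on EAE arrays and 3.84 to 4.02 on control arrays. Only 6.66% of all probe sets had a lower mean over the arrays. The differences of Unc93b1 within batches 1, 2 and 3 were 0.67, 0.56 and 1.40. The scavenger receptor Cd36 (-0.11) and the chaperone Hsp90b1 (0.09), which folds Toll-like receptors, were the other 2 genes. Log2 signals of Cd36 were low, 4.94 to 5.12 on EAE arrays and 5.09 to 5.20 on control arrays.

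The adaptor Tirap, which bridges TLR2 and TLR4 to MyD88, had log2 signals of 5.95, 5.82, 5.58, 5.88 and 5.68 on EAE arrays 1 to 5, against 5.48, 5.54 and 5.39 on control arrays. Its groups did not overlap, but the lowest EAE array was only slightly above the highest control. The log2 fold change of 0.31 did not pass the test (adjusted p = 0.0581).

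Among the kinases and ubiquitin ligases downstream of the adaptors 1 of 11 measured genes rose and 1 fell, with a median log2 fold change of 0.02. These counts are near the background of 8.26% higher and 11.4% lower over all probe sets. Irak1 belonged to the 9 that did not pass. Ikbke encodes a kinase of interferon regulatory factors and had log2 signals of 6.59 to 6.99 on EAE arrays and 6.16 to 6.29 on control arrays. It rose by 0.56 on the log2 scale (adjusted p = 0.0256), a call lost without an array of batch 2 (adjusted p = 0.083) or batch 3 (adjusted p = 0.0901). Ube2v1, a cofactor of the ubiquitin-conjugating enzyme that works with TRAF6, fell by 0.33 (adjusted p = 0.0402) with overlapping groups, and without the batch term its adjusted p was 0.258. Probe sets of 1 gene could disagree. The brightest probe set of the kinase Map3k8 had a log2 fold change of -0.02, whereas the dimmer one rose by 1.14 (adjusted p = 0.00285).

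**Figure D2:**
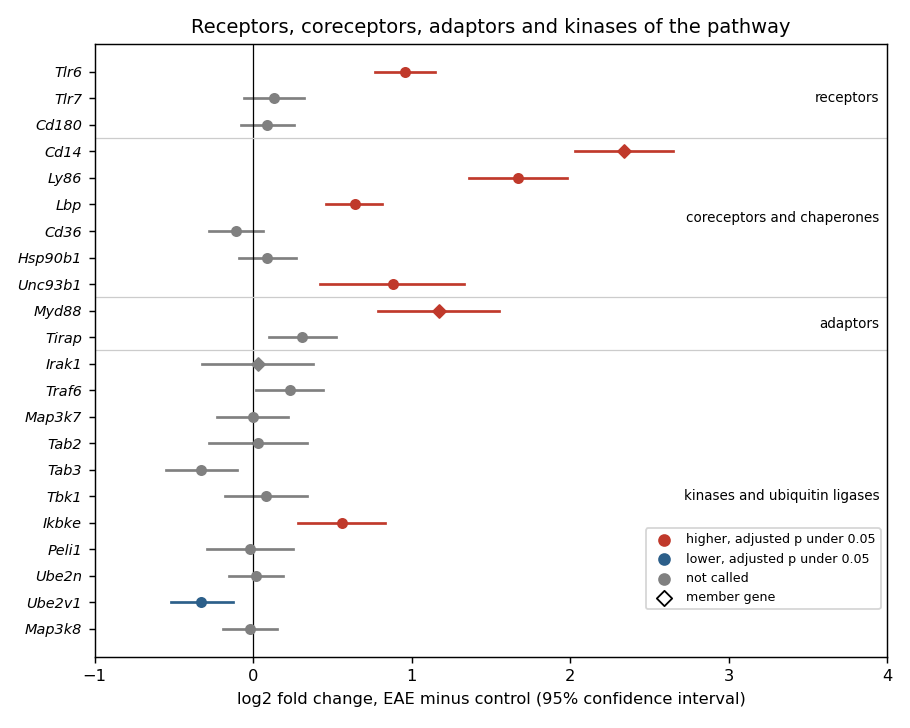
Log2 fold change of EAE over control from limma for the 22 measured receptors, coreceptors, adaptors and kinases, with bars for the 95% confidence interval. Red points rose, blue points fell and grey points did not pass at an adjusted p of 0.05; the members Cd14, Myd88 and Irak1 are drawn as diamonds, and Cd14 (2.34) has the largest value.

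Of the 6 measured genes of NF-kappaB and its kinases 2 rose, both of the noncanonical branch, with 0.48 for Relb (adjusted p = 0.0132) and 0.45 for Nfkb2 (adjusted p = 0.0107) on the log2 scale. Both calls were lost without an array of batch 2 (adjusted p = 0.0593 and 0.0554) or batch 3 (adjusted p = 0.0827 and 0.0718). The log2 fold changes without an array of batch 2 or 3 were 0.492 and 0.425 for Relb and 0.459 and 0.462 for Nfkb2, so that Nfkb2 hardly moved. A second probe set of Relb gave 0.09. Rela, the main transactivating subunit, had a log2 fold change of 0.39 (adjusted p = 0.0639). Of 13 measured MAP kinases and AP-1 genes 2 rose and 1 fell, with a median of -0.06. These counts too are near the background of 8.26% higher and 11.4% lower over all probe sets. Junb rose by 0.52 (adjusted p = 0.0135; 0.0917 without an array of batch 3), and Fos rose by 0.53 (adjusted p = 0.00755) with overlapping groups and with an adjusted p of 0.143 in the fit without the batch term and 0.0621 without an array of batch 3. The second probe set of Junb rose by 0.83, whereas that of Fos was at -0.05, and the mean of the Fos probe sets gave 0.24. Map2k6, a kinase that activates p38, fell by 0.30 (adjusted p = 0.0432), and its adjusted p was 0.0746 to 0.181 without an array of batch 1, 2 or 3. Its second probe set was at -0.10, and the mean of both gave -0.20 (adjusted p = 0.0822).

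Interferon regulatory factors were higher in 4 of 5 cases, with a median log2 fold change of 1.36. Irf1 had log2 signals of 9.17, 9.72, 9.35, 9.28 and 9.82 on EAE arrays 1 to 5, against 6.46, 6.43 and 6.52 on control arrays, and its log2 fold change of 2.94 ± 0.127 (SE, adjusted p = 0.000421) was a 7.70-fold rise. Irf8, a factor of the myeloid lineage, rose by 2.23 (adjusted p = 0.00102), and Irf5, which binds MyD88, by 1.36 (adjusted p = 0.00152). Irf3, which acts after TLR3 and TLR4, had a log2 fold change of 0.06 and did not pass. Its log2 signals were low, 4.71 to 5.10 on EAE arrays and 4.71 to 5.00 on control arrays. The order of the values of these factors within the EAE group differed from that of Cd14. EAE array 3 had the lowest Cd14 signal but was in the middle of its group for Irf1.

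Inhibitors of the pathway rose in 8 of 13 measured cases, with a median of 0.68. Socs3, an inhibitor of cytokine receptor signalling, had log2 signals of 7.54 to 8.29 on EAE arrays and 5.38 to 5.53 on control arrays and rose by 2.29 (adjusted p = 0.000279), and its second probe set rose by 3.46. Atf3, a repressor of genes induced by Toll-like receptors, rose by 1.67 (adjusted p = 0.00134), but its other probe sets had log2 fold changes of 0.47 and 0.01. Trafd1, which restrains TRAF6 signalling, rose by 1.42 (adjusted p = 0.000486), with 0.54 for its second probe set. Tollip, an inhibitor of IRAK1, had a log2 fold change of -0.29 and did not pass (adjusted p = 0.227).

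The largest changes were in the induced targets, of which 16 of 26 rose with a median log2 fold change of 0.99. Saa3, an acute-phase protein made by macrophages, had log2 signals of 10.46, 10.67, 10.39, 10.31 and 10.54 on EAE arrays 1 to 5, against 5.14, 5.02 and 5.01 on control arrays, a log2 fold change of 5.45 ± 0.0901 (SE, adjusted p = 7.2e-05). The chemokine Ccl2, which attracts monocytes, had log2 signals of 10.12, 10.00, 8.66, 9.84 and 10.50 on EAE arrays 1 to 5, against 4.12, 4.20 and 4.21 on control arrays. As for Cd14 and Myd88, EAE array 3 was the lowest of the EAE group for Ccl2, and the log2 fold change was 5.42 ± 0.312 (SE, adjusted p = 0.000885). Ccl5, a chemokine of T cells and monocytes, had log2 signals of 7.96, 8.30, 9.74, 9.10 and 8.87 on EAE arrays 1 to 5, against 4.98, 4.89 and 4.86 on control arrays. Here EAE array 3 was the highest, and the log2 fold change was 3.76 ± 0.367 (SE, adjusted p = 0.00423). Cxcl2, Nos2, Il10, Il12b and Ifnb1 were among the 10 targets that did not pass. Cxcl2 had the largest change of the 10, with 1.32 (adjusted p = 0.0795 in limma) and no overlap. Nos2, at 0.48 (adjusted p = 0.0572 in limma), also did not overlap, with low log2 signals of 4.78 to 5.22 on EAE arrays and 4.41 to 4.52 on control arrays. The log2 fold changes were -0.05 for Il10, -0.07 for Il12b and 0.00 for Ifnb1. Signals of Il10 and Ifnb1 were low, with only 16.6% and 10.4% of all probe sets having a lower mean over the arrays. At such signals an unchanged transcript cannot be told apart from one that was not detected.

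Of the 10 measured endogenous ligands 6 rose and 2 fell. S100a8 and S100a9 encode the subunits of calprotectin, a neutrophil and monocyte protein that engages TLR4. S100a8 had log2 signals of 8.87 to 9.86 on EAE arrays and 4.66 to 4.78 on control arrays and rose by 4.54 (adjusted p = 0.000283). S100a9 rose by 3.40 (adjusted p = 7.2e-05). Both genes are also among the neutrophil markers described above. The matrix protein Tnc rose by 1.35 (adjusted p = 0.00474), and its second probe set by 0.83. The heat-shock genes Hspa1b and Hspa1a, near-identical copies that probes can share, fell by 0.76 (adjusted p = 0.0468) and 0.53 (adjusted p = 0.0301). Their adjusted p was 0.0545 to 0.108 for Hspa1b and 0.0598 to 0.0847 for Hspa1a without an array of batch 1, 2 or 3, and the log2 fold change of Hspa1b was -0.49 without an array of batch 2.

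**Figure D3:**
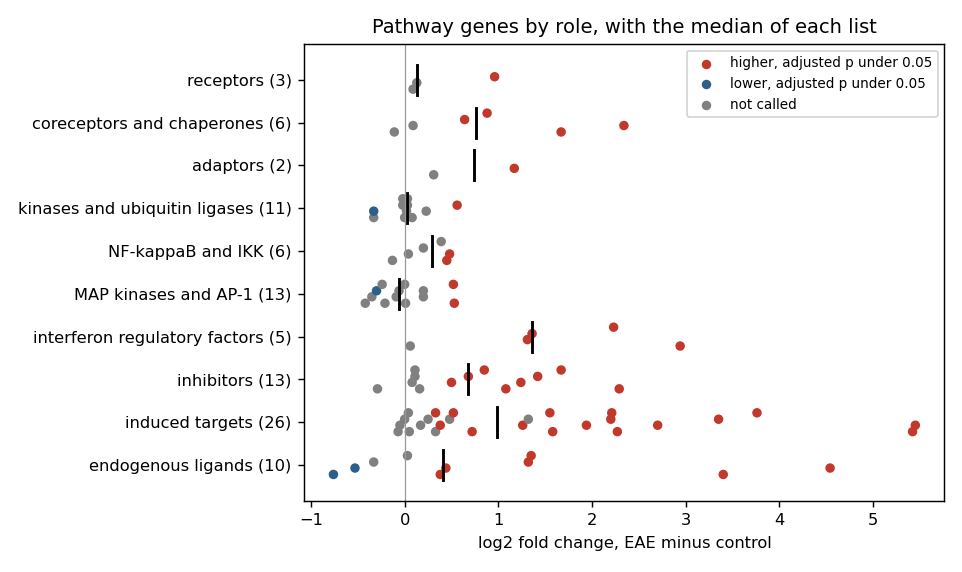
Log2 fold change of EAE over control from limma for the 95 measured pathway genes in 10 lists by role, 1 point for each gene. The medians are highest for the interferon regulatory factors (1.36) and the induced targets (0.99) and near 0 for kinases and ubiquitin ligases (0.02) and MAP kinases (-0.06).

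EAE array 3, from mice killed on day 17, held different places within the EAE group for different genes. It had the highest mean of the macrophage and microglia markers, 8.53 against 7.85 to 8.10 on the other EAE arrays, but the lowest signal of Cd14, Myd88 and Ly86 within the group. Of the 45 pathway genes that rose, it was the lowest EAE array for 18 (40.0%) and the highest for 9 (20.0%). Of all 1026 probe sets that rose, it was the lowest for 271 (26.4%) and the highest for 323 (31.5%). Tlr6 was lowest on EAE array 2 (6.16) instead. Dixon's test for an outlying value among the 5 EAE arrays flagged 0 of 38 named genes. A single pool of 2 animals stood for day 17, and day and batch cannot be told apart.

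**Figure D4:**
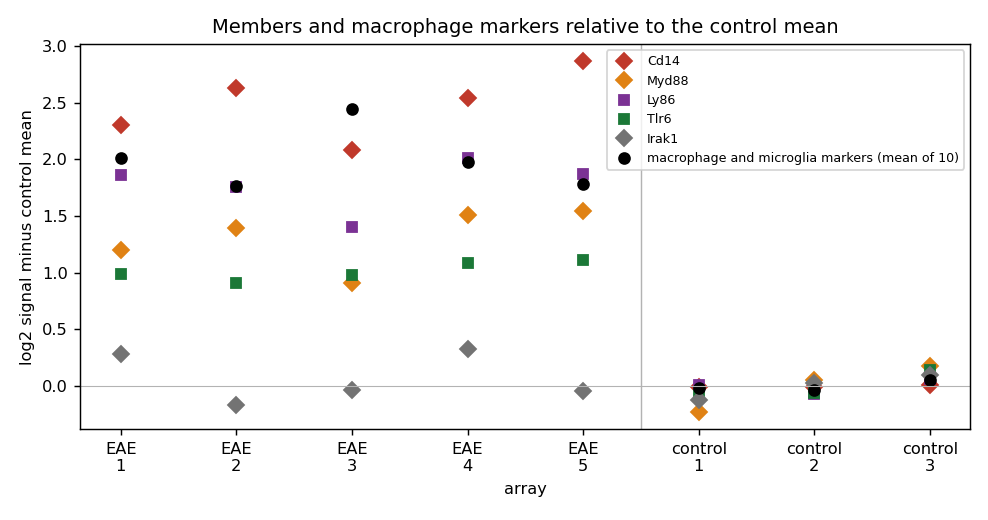
Log2 signal minus the control mean on each array for Cd14, Myd88, Ly86, Tlr6, Irak1 and the mean of 10 macrophage and microglia markers, with EAE arrays 1 to 5 left of control arrays 1 to 3. On EAE array 3 the marker mean is the highest of the EAE arrays while Cd14, Myd88 and Ly86 are the lowest.

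The genes with a pattern most like each member were found among 8250 other genes by the root mean square difference of their signals over the 8 arrays, after each gene was centred on its own mean. For Cd14 these were Usp18, a protease of the interferon response (0.0952), the neutrophil chemokine Cxcl1 (0.139), the neutrophil collagenase Mmp8 (0.167) and Socs3 (0.175). For Myd88 they were the interferon-inducible gene Ifi204 (0.154), the death receptor Fas (0.163), the interleukin-1 receptor Il1r1 (0.166) and the acute-phase gene Saa2 (0.170). For Irak1 they were Calm2, which encodes calmodulin (0.0506), Dnaaf5 (0.0744), Tubb2a-ps2 (0.0767) and Smad4 (0.0773). Tubb2a-ps2 is a tubulin pseudogene whose probes may match related copies. All genes named for Cd14 and Myd88 rose without overlap between the groups. Those named for Irak1 did not pass the test and had their highest EAE signals on arrays 1 and 4, as Irak1 did. These shared features follow from choosing the genes by their likeness over the same arrays, and they are not separate results.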

How the data were processed

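RNA of whole spinal cord was measured on 8 arrays. The authors deposited log2 values that were normalized in Partek with RMA and quantile normalization, adjusted for GC content and log transformed; tool versions are not given in the sources used here. They were not normalized again. Of 12488 probe sets, 66 Affymetrix controls were left out. Of the other 12422, 10833 carried 1 gene symbol, 396 more than 1 and 1193 no symbol. The symbols of 10817 were matched to RefSeq by Entrez identifier, which changed 0.

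Treatment and batch were the terms of a linear model in limma (version 3.58.1, R version 4.3.3), as in the methods' two-way analysis of variance (2 residual and 3.05 prior degrees of freedom). Two-sided p values were adjusted after Benjamini and Hochberg across the whole table, at a threshold of 0.05. The batch equals the replicate number, and the labels state a shared day. Deviations from the group means correlated by 0.302, -0.231 and 0.412 in batches 1 to 3. The number of arrays limits the precision.

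The members and lists were chosen with earlier results of these data known. Named genes were the members, in each list up to 3 genes per direction that passed with the largest change, and the 4 genes most like each member. Tlr7, Cd180, Cd36, Hsp90b1, Lbp, Tirap, Map3k8, Rela, Irf3, Tollip, Cx3cr1, Csf3r, Cxcr2, Cxcl2, Nos2, Il10, Il12b and Ifnb1 were chosen for naming once their values had been seen. The alternatives tried were other batch terms, variance priors, normalizations and filters, another summary of probe sets and each array left out. The fit was tested on simulated data. Figures were drawn with matplotlib 3.10.9.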

Additional observations from a re-analysis of the deposited data

How the results depend on the processing

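Of 20 alternatives 14 differed from the reported fit and from each other, since in the block design leaving out a control array equals leaving out the EAE array of its batch, EAE arrays 1 and 4 together equal EAE array 1, and EAE arrays 4 and 5 have no control in their batches. Cd14 and Myd88 kept their direction in all 14 and their call in all but 1, with log2 fold changes of 2.19 to 2.53 for Cd14 and 1.04 to 1.39 for Myd88. The exception was the fit without variance moderation, with the same log2 fold changes of 2.34 and 1.17, adjusted p of 0.133 and 0.201 and unadjusted p of 0.00508 and 0.0326. That fit has 2 residual degrees of freedom. It called 0 pathway genes higher and 0 lower (44 and 3 at an unadjusted p under 0.05) and 1 and 0 of all probe sets (1081 and 1575 at an unadjusted p under 0.05). With each array left out in turn, Cd14 ranged over 2.19 to 2.48 and Myd88 over 1.04 to 1.39.

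Irak1 was not called in any alternative. Its value was -0.003 after median centring, -0.008 with array weights, -0.162 without both EAE arrays 1 and 4 (chosen after seeing the data) and -0.079 without these and without the replicate block, and -0.162 to 0.145 with each array left out. Among the genes most like it, none called anywhere, signs turned for Calm2 (-0.028, -0.023 and -0.031 under median centring, a further quantile normalization and array weights, -0.184 without EAE arrays 1 and 4, -0.077 without these and the block), Smad4 (-0.027, -0.023, -0.105 and -0.046 under median centring, array weights and the same omissions), Dnaaf5 (0.002 without the block) and Tubb2a-ps2 (0.001 without the block, 0.000 with it as a random effect). With single arrays left out, they ranged over -0.184 to 0.109 (Calm2), -0.105 to 0.115 (Smad4), -0.28 to 0.042 (Dnaaf5) and -0.141 to 0.09 (Tubb2a-ps2).

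The 45 higher pathway genes were 48 without the replicate block and 32 to 45 with an array left out. The count of lower pathway genes, 4 as reported, was 7 with the block as a random effect, 7 after median centring, 2 among brighter probe sets and 2 without EAE arrays 1 and 4. It was 2, 1 and 0 without an array of batch 1, 2 or 3 (10, 7 and 6 at an unadjusted p under 0.05), a range of 0 to 4, and 0 of the 4 reported genes were among these. Of the 49 pathway calls, 46 were also made without the block, 39, 35 and 32 without an array of batch 1, 2 or 3, 32 among brighter probe sets and 0 without moderation. Counts over all probe sets ranged over 521 to 1026 higher and 225 to 1412 lower with an array left out, the lowest without EAE or control array 3. Without an array of batch 2, 571 were lower. Fits without an array of batch 1, 2 or 3 have 1 residual degree of freedom. Under median centring the median of all probe sets was -0.08. The filter on dim probe sets removed Tlr6, Unc93b1, Il1r1, Fas and other genes with means below the median, so that their values there were not obtained. For the 35 named genes outside the members, 581 values kept their direction and their side of the threshold, 88 lost the call and 22 turned sign. These values come from all 20 alternatives, including repeats and the 2 that are identical to the reported fit. Upper ends of the count ranges with an array left out equal the reported counts, as EAE arrays 4 and 5 carry no weight.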
